A study of Mus musculus with 6 samples.

Results

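Iron, copper and zinc are handled in brain tissue by a small group of carriers, stores and buffers, and 10 of their genes were followed in the lateral septum (LS) of mice fed olanzapine. The genes were chosen by symbol, for their known part in metal transport, storage or buffering, as the rows for Mt1, Mt2, Mt3, Trf, Cp, Hpx, Fth1, Tfrc, Slc40a1 and Hamp, and all 10 were found among the 35415 genes of the deposited count and FPKM tables. FPKM is the number of sequenced fragments per kilobase of transcript, scaled to the size of the library. They were chosen with earlier results of these data known. All 10 passed the filter on low counts and were tested.

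The LS is a forebrain nucleus connected with the hypothalamus. Female wild-type C57BL/6 mice, obtained at about 8 weeks of age and acclimated for 1 week, were fed for 12 weeks either standard chow (control group) or chow with 50 mg olanzapine per kg (olanzapine group). Olanzapine is a second-generation antipsychotic known for weight gain as a side effect. Each RNA-seq library was made from total RNA of LS tissue pooled from 3 mice, with 3 pools per group (n = 3 pools in every mean ± SD), and the comparison asked which transcripts differed between the diets.

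Iron leaves cells through ferroportin (Slc40a1), travels in plasma bound to transferrin (Trf), enters cells through the transferrin receptor (Tfrc) and is stored in ferritin (Fth1). Hepcidin (Hamp), a peptide hormone made mainly by the liver, blocks ferroportin, and haemopexin (Hpx), a liver plasma protein, binds free haem. Ceruloplasmin (Cp) carries copper and oxidises iron, and the metallothioneins Mt1, Mt2 and Mt3 are small cysteine-rich proteins that bind zinc and copper, of which Mt3 is the form typical of brain.

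The transcripts of 3 of the genes hold iron-responsive elements, short hairpins through which iron regulatory proteins act on translation (elements in a 5′ UTR) or on RNA stability (elements in a 3′ UTR). They are shown because they are the letters through which iron is known to act on these RNAs after transcription. A search for a C, 5 paired bases, the loop CAGTGN and the 5 pairing bases (G-U pairs allowed) found matches in the GENCODE transcripts of 294 of 21877 protein-coding genes (1.34%), and these included Fth1, Slc40a1 and Tfrc. The 30 bases around each match are given in the sense of the RNA, with the loop in capitals, and lie on GRCm38 at chr19:9982732-9982761 (+ strand, 5′ UTR of Fth1), chr1:45925464-45925493 (− strand, 5′ UTR of Slc40a1), and chr16:32631219-32631248 and chr16:32631710-32631739 (+ strand, the most 5′ and the most 3′ of 4 matches in the 3′ UTR of Tfrc).
Fth1 element: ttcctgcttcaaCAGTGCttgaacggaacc
Slc40a1 element: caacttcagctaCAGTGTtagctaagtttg
Tfrc element 1: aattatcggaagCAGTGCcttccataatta
Tfrc element 4: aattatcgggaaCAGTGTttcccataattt

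Promoter windows (RefSeq, GRCm38.p6) of 250 bases before and 50 bases after the transcription start were found for 8 of the 10 genes, and not for Trf and Slc40a1. The metallothionein windows are shown because these genes are the classic targets of the metal-responsive factor MTF1, and the 250 bases before the start are printed with the cores TGCACNC and TGCGCNC of its element in capitals on either strand. They lie at chr8:94178839-94179088 for Mt1, chr8:94172368-94172617 for Mt2 and chr8:94152357-94152606 for Mt3, all on the + strand. The start used for Mt1 lies 206 bases inside the RefSeq gene, whose span begins further upstream, while the starts of Mt2, Mt3, Hamp and Hpx are those of the genes. For each, a 30-base stretch after the start that holds the cores found there follows, at bases 1 to 30 for Mt1 and Mt2 and 16 to 45 for Mt3.
Mt1 before the start: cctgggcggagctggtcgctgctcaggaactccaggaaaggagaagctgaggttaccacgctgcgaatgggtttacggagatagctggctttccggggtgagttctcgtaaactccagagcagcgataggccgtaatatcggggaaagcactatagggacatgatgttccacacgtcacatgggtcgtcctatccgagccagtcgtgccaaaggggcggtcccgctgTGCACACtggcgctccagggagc
Mt1 after the start: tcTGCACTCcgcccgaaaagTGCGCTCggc
Mt2 before the start: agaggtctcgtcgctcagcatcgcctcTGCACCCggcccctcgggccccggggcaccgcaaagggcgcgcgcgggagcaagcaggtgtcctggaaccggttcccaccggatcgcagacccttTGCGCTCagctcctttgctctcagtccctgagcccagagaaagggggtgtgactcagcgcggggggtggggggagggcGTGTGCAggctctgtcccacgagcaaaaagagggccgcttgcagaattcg
Mt2 after the start: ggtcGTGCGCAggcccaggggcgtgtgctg
Mt3 before the start: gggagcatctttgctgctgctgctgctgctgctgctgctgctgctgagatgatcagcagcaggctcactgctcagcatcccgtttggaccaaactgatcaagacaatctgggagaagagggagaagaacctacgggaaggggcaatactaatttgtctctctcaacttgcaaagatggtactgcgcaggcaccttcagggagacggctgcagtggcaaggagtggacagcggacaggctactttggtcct
Mt3 after the start: tcgggacagcagTGCACACacacggagagc
The Mt2 window held 4 cores, the Mt1 window 3 and the Mt3 window 1, and the Mt3 core lay after the start. Of all 32851 promoter windows of the same length, 25.7% held at least 1 core, 7.11% at least 2, 1.97% at least 3 and 0.517% at least 4. The first Tfrc window held 2 cores that overlap each other on opposite strands, and the windows of Cp, Fth1, Hpx and Hamp held none. A match is a description of letters and not a measured binding site.

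The windows of Hamp, at chr7:30944030-30944279, and Hpx, at chr7:105600117-105600366, both on the − strand, are shown because these were the genes that rose. Capitals mark GGCGCC, the core bound by SMAD proteins downstream of bone morphogenetic proteins, and TTCNNNGAA, the core bound by STAT proteins, searched on both strands.
Hamp before the start: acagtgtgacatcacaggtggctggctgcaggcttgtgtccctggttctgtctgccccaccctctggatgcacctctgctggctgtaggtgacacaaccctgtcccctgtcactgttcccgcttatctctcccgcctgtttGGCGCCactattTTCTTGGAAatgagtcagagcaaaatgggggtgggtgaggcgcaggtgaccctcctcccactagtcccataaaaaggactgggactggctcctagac
Hpx before the start: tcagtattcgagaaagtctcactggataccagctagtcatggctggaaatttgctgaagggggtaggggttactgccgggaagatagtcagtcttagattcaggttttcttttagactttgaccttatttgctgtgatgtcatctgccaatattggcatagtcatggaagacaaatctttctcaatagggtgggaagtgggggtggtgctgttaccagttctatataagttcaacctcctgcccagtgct
In the Hamp window GGCGCC stood 109 to 104 bases and TTCTTGGAA 97 to 89 bases before the start, and the Hpx window held neither. GGCGCC was present in 11.9% and TTCNNNGAA in 8.30% of all 32851 windows. No match says only that these letters are not in this window.

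The 6 libraries held 38208153 to 39868872 counts on genes. Of 17255 genes tested, the quasi-likelihood test of edgeR called 401 at a Benjamini-Hochberg adjusted p under 0.05, and such p-values measure the spread between pools. Gad1, the GABA-synthesising enzyme that leads the LS neuron markers by FPKM, was at 137 ± 16.5 FPKM for control pools and 131 ± 16.97 FPKM for olanzapine pools (log2 fold change -0.09). Of the 8 LS neuron markers 0 were called by edgeR, while 7 had a log2 fold change below 0 (median -0.28) and 3 had an unadjusted p under 0.05, all lower in the olanzapine group (Gad2, Zic1 and Trpc4, named after their values were seen). Over all tested genes 17.6% had an unadjusted p under 0.05, and 8.40% did so with a lower level. Their summed level was 2331 to 2966 CPM (counts scaled to library size) in the control pools and 1886 to 2578 CPM in the olanzapine pools. Brain endothelium markers summed to 166 to 194 CPM in the control pools and 98.1 to 191 CPM in the olanzapine pools, with all 8 below 0 (median log2 fold change -0.46), 2 at an unadjusted p under 0.05 and 0 called. Choroid plexus markers, led by the transthyretin gene Ttr, differed widely between pools within both groups. Their sum ran from 136 to 7658 CPM in the control pools and from 88.4 to 4833 CPM in the olanzapine pools, and 0 of 10 were called. Fewer cells of a type and less RNA per cell cannot be told apart in such pools.

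Of the 10 genes, Hpx and Hamp rose in the olanzapine group and 8 did not pass the test. The 2 calls among 10 genes stand beside 2.32% of all tested genes called in either direction and 1.83% called higher. Because the genes were chosen with earlier results of these data known, the shares set beside them here are a description. Both were also DEGs (adjusted p under 0.05 and fold change above 2), against 0.950% of all tested genes that were DEGs with a higher level. The groups did not overlap for 2 of the 10 genes, both higher in the olanzapine group, where 24.3% of all tested genes had no overlap in one direction or the other. Over the 10 genes, log2 fold changes had a median of 0.02, beside 0.00 for all tested genes.

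**Figure D1:**
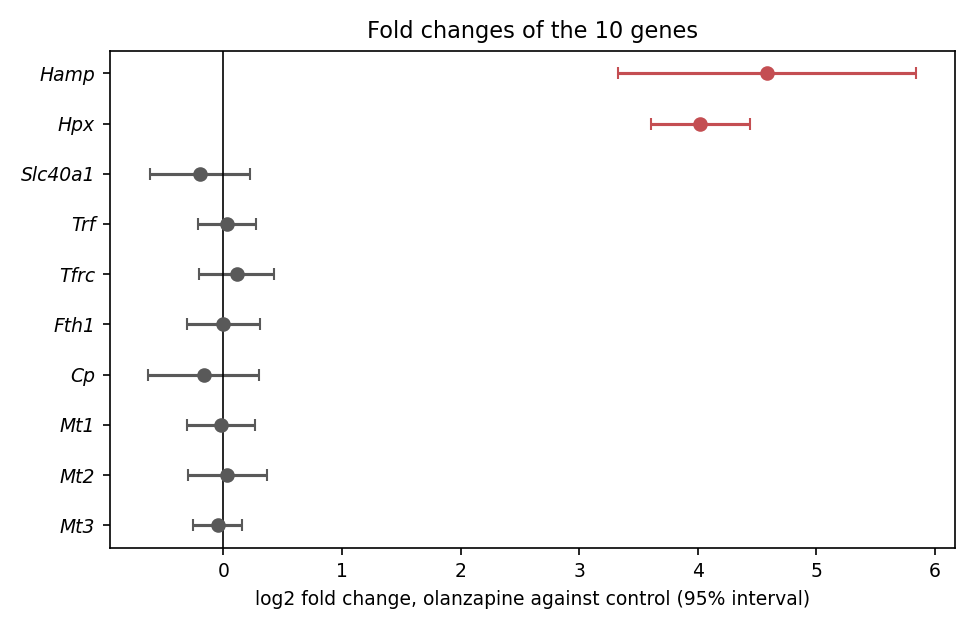
Log2 fold change (olanzapine against control, x axis) of each of the 10 genes, with its 95% interval from edgeR, red for the 2 genes with an adjusted p under 0.05 and grey for the others. Hamp at 4.58 and Hpx at 4.02 stand apart from the other 8 genes, whose points lie between -0.20 and 0.11.

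Hepcidin, the hormone that closes ferroportin, is encoded by Hamp at chr7:30942368-30944029 (− strand). It had 7, 7 and 1 counts in control pools 1 to 3 and 94, 171 and 99 counts in olanzapine pools 1 to 3. Every olanzapine pool was far above every control pool, and control pool 3, with a single count, was the lowest. The deposited FPKM averaged 0.309 ± 0.213 for control pools and 7.76 ± 2.81 for olanzapine pools. The difference was 4.58 on the log2 scale (SE 0.55; edgeR, adjusted p = 0.00625), which is a fold of 24.0 with a 95% interval of 10.01 to 57.3. The control side of this fold rests on 7 counts or fewer per pool, and the interval is wide. The near-identical copy Hamp2, named after its values were seen, had at most 6 counts in any pool and was not tested, and reads shared between the copies cannot be assigned with certainty.

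Haemopexin, the plasma scavenger of free haem, is encoded by Hpx at chr7:105591611-105600116 (− strand). It had 46, 36 and 32 counts in control pools 1 to 3 and 571, 673 and 588 counts in olanzapine pools 1 to 3. The pools of each group lay close together, with a gap of more than 500 counts between the groups. Its FPKM was 0.647 ± 0.119 for control pools and 10.7 ± 1.02 for olanzapine pools. The difference was 4.02 on the log2 scale (SE 0.18; edgeR, adjusted p = 0.000162), a fold of 16.2 with a 95% interval of 12.1 to 21.7. By mean FPKM, Hpx moved from rank 13497 of all genes in the control group to rank 5208 in the olanzapine group, and Hamp from 14856 to 6502.

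Hpx and Hamp are both known as transcripts of hepatocytes, and the hepatocyte markers moved with them. The 16 markers summed to 13.3 to 25.2 CPM in the control pools and 285 to 350 CPM in the olanzapine pools. By edgeR, 15 of 15 tested were called higher with a median log2 fold change of 4.12, beside 1.83% of all tested genes. The list was chosen with earlier results of these data known and holds apolipoprotein genes that the study had reported as increased. The count of calls is therefore a description. The part of hepatocyte transcripts in the rise of Hpx and Hamp was not tested.

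Alb, the albumin gene and the highest of these markers by FPKM, had 460, 507 and 268 counts in control pools 1 to 3 and 5049, 6632 and 5345 counts in olanzapine pools 1 to 3. Set against it, Hpx stood at 10, 7.10 and 11.9 counts per 100 Alb counts across the control pools, against 11.3, 10.1 and 11 across the olanzapine pools. The ratio of Hpx to Alb therefore overlapped between the groups. Hamp stood at 1.52, 1.38 and 0.373 counts per 100 Alb counts across the control pools, against 1.86, 2.58 and 1.85 across the olanzapine pools. Those ranges did not overlap, but the control ratios rest on 7, 7 and 1 counts of Hamp.

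**Figure D2:**
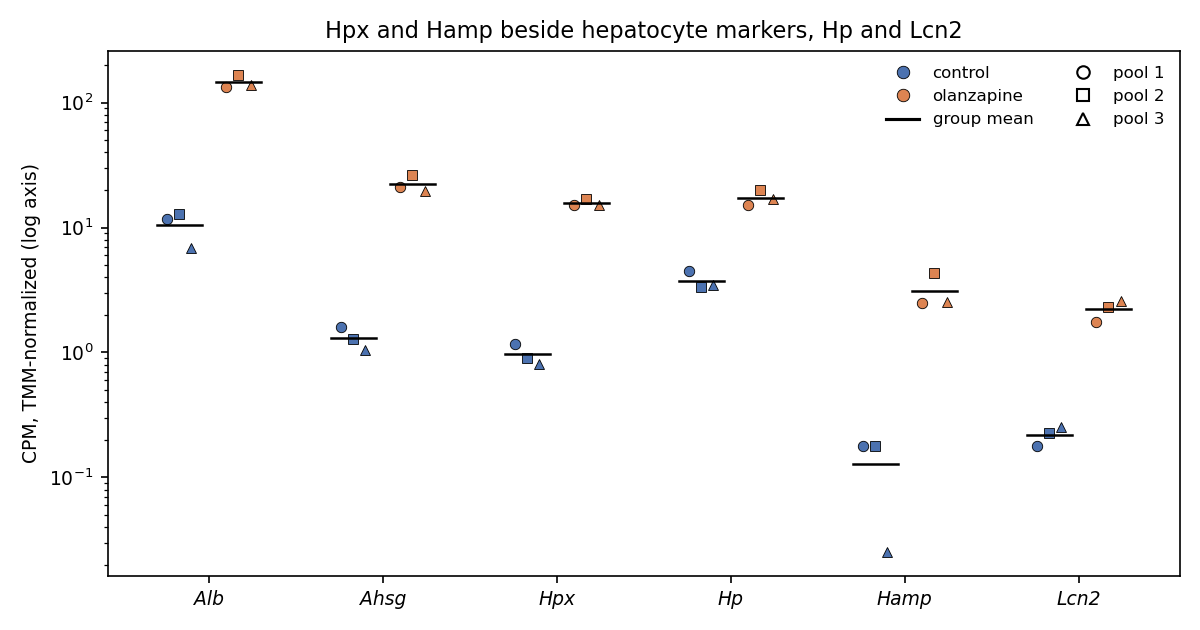
CPM (TMM-normalized, log axis) in each pool for Alb, Ahsg, Hpx, Hp, Hamp and Lcn2, blue for control and orange for olanzapine, with a marker shape per pool number and a bar at the group mean. In all 6 genes the 3 olanzapine pools lie above the 3 control pools, and the gap is smallest for Hp.

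The genes whose pattern over the 6 pools was most like that of Hpx were Ahsg, Serpina1a and Cyp2d9, with mean absolute differences of 0.0802, 0.0930 and 0.113 on the log2 CPM scale relative to each gene's control mean. This scale adds a prior count of 2, which shrinks differences at low counts, so fitted fold changes can lie further apart. Ahsg encodes fetuin-A, Serpina1a an alpha-1-antitrypsin and Cyp2d9 a cytochrome P450, and their log2 fold changes were 4.09, 4.26 and 4.74. For Hamp the most similar genes were Mup20, Serpinc1 and Mup7, at 0.229, 0.234 and 0.236. Mup20 and Mup7 encode major urinary proteins and Serpinc1 encodes antithrombin, and their log2 fold changes were 4.47, 4.19 and 4.32. Counts of the Serpina1, Mup and Cyp2d families are uncertain because their copies are nearly identical. The likeness was measured in the same pools as the fold changes and is a description.

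The iron carrier and uptake genes did not pass the test. Trf, the transferrin gene at chr9:103208876-103230286 (− strand), had 19838, 20068 and 22833 counts in control pools 1 to 3 and 18235, 21193 and 23884 counts in olanzapine pools 1 to 3. Olanzapine pool 1 was the lowest and olanzapine pool 3 the highest of all, so the control range lay inside the olanzapine range. Its FPKM was 226 ± 19.5 for control pools and 235 ± 30.5 for olanzapine pools, with a log2 fold change of 0.03 (95% interval -0.21 to 0.28; edgeR, adjusted p = 0.903). In brain, Trf is known as a transcript of oligodendrocytes. The summed oligodendrocyte markers, led by the myelin gene Mbp, stood at 9257, 9388 and 11385 CPM in control pools 1 to 3 and 8504, 9018 and 11383 CPM in olanzapine pools 1 to 3. Olanzapine pool 1 was thus the lowest of all and pool 3 the highest of its group for both measures, and 0 of 10 of these markers were called.

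Tfrc (chr16:32608896-32632794, + strand), the receptor that takes up transferrin, had 2189, 1705 and 1985 counts in control pools 1 to 3 and 2425, 1832 and 1993 counts in olanzapine pools 1 to 3. In both groups pool 1 was the highest and pool 2 the lowest, and the groups overlapped. Its FPKM was 9.59 ± 1.18 for control pools and 10.5 ± 1.54 for olanzapine pools, with a log2 fold change of 0.11 (95% interval -0.21 to 0.43; edgeR, adjusted p = 0.728). Low iron is known to stabilise the RNA of Tfrc through elements in its 3′ UTR.

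Fth1 (chr19:9980600-9985111, + strand), the ferritin heavy chain, was the most abundant of the 10 genes, ranking 7 of all genes by mean FPKM over the control pools and 6 over the olanzapine pools. It had 110718, 116540 and 147546 counts in control pools 1 to 3 and 111206, 121316 and 137118 counts in olanzapine pools 1 to 3. Pool 3 was the highest of each group, and the olanzapine range lay inside the control range. Its FPKM was 3344 ± 552 for control pools and 3399 ± 342 for olanzapine pools. The log2 fold change was 0.0013 (95% interval -0.31 to 0.31; edgeR, adjusted p = 0.997). Iron is known to act on Fth1 at translation, a step on which RNA counts do not report.

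Slc40a1 (chr1:45908070-45926532, − strand), the iron exporter on which hepcidin acts, had 279, 216 and 237 counts in control pools 1 to 3 and 242, 208 and 179 counts in olanzapine pools 1 to 3. The groups overlapped, and olanzapine pool 3 was the lowest of the 6. Its FPKM was 1.76 ± 0.227 for control pools and 1.56 ± 0.241 for olanzapine pools, with a log2 fold change of -0.20 (95% interval -0.62 to 0.23; edgeR, adjusted p = 0.630). It was -0.33 without olanzapine pool 1 and -0.08 without control pool 1. Hepcidin is known to remove the ferroportin protein, a step that RNA counts do not measure.

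Cp (chr3:19956933-20009750, + strand), the copper-carrying ferroxidase ceruloplasmin, had 530, 666 and 759 counts in control pools 1 to 3 and 710, 564 and 438 counts in olanzapine pools 1 to 3. Control pool 3 was the highest and olanzapine pool 3 the lowest, and the groups overlapped. Its FPKM was 2.25 ± 0.409 for control pools and 2.03 ± 0.490 for olanzapine pools, with a log2 fold change of -0.17 (95% interval -0.63 to 0.30; edgeR, adjusted p = 0.726). It was -0.375 without olanzapine pool 1 and -0.006 without olanzapine pool 3. The choroid plexus markers were also highest in control pool 3 (7658 CPM) and lowest in olanzapine pool 3 (88.4 CPM). With a choroid plexus score as a covariate, an alternative added after seeing the data, the log2 fold change of Cp was -0.08 (edgeR, adjusted p = 0.842). Cp overlaps Hps3 on the opposite strand, and the strand setting of the counting was not given in the sources used here, so reads in the overlap are uncertain. Mt2, Trf and Hamp each overlap 1 other gene of the GENCODE annotation, where reads are uncertain as well.

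The 3 metallothionein genes lie in 1 cluster on chromosome 8, within 27.7 kb from the start of Mt3 to the end of Mt1, and Mt2 ends 5.3 kb before the RefSeq span of Mt1 begins. None of the 3 passed the test. Mt1 had 8950, 9032 and 10595 counts in control pools 1 to 3 and 7426, 10304 and 10097 counts in olanzapine pools 1 to 3. Mt2 had 6196, 6223 and 7242 counts across the control pools, against 4992, 7366 and 7528 across the olanzapine pools. Mt3, the brain form, had 10353, 10756 and 11697 counts across the control pools, against 9146, 10722 and 11450 across the olanzapine pools. In each of the 3 genes olanzapine pool 1 was the lowest of the 6 pools, control pool 3 was the highest of its group, and the groups overlapped.

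The log2 fold change of Mt1 was -0.02 (95% interval -0.31 to 0.27; edgeR, adjusted p = 0.953). That of Mt2 was 0.03 (95% interval -0.30 to 0.37; adjusted p = 0.928), and that of Mt3 was -0.05 (95% interval -0.25 to 0.16; adjusted p = 0.837). The interval of Mt2 was the widest of the 3, and each of them held 0. The ratio of Mt2 to Mt1 lay in a narrow range, and Mt2 stood at 69.2, 68.9 and 68.4 counts per 100 Mt1 counts across the control pools, against 67.2, 71.5 and 74.6 across the olanzapine pools. Mt3 stood at 116, 119 and 110 counts per 100 Mt1 counts across the control pools, against 123, 104 and 113 across the olanzapine pools, so both ratios overlapped between the groups. Astrocytes are a known source of Mt1 and Mt2 in brain. The astrocyte markers, led by the glutamate transporter gene Slc1a2, summed to 4373 to 4933 CPM in the control pools and 3571 to 4182 CPM in the olanzapine pools, while 0 of 8 were called and 3 had an unadjusted edgeR p under 0.05, all lower in the olanzapine group, beside 8.40% of all tested genes. The sums of the list did not overlap, but those of the other 7 markers without Slc1a2 did, at 1814 to 2033 CPM in the control pools and 1559 to 1874 CPM in the olanzapine pools, and 2 of the 8 markers separated the groups, beside 24.3% of all tested genes. Their part in the metallothionein levels was not tested.

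The order of the metallothionein levels depended on the length used. The deposited FPKM were 191 ± 19.8 for Mt1, 297 ± 28.9 for Mt2 and 512 ± 35.5 for Mt3 in the control group, and 192 ± 33.2, 310 ± 66.1 and 504 ± 55.4 in the olanzapine group. Dividing the counts by these FPKM gave a length of 1258 bases for Mt1, 556 for Mt2 and 538 for Mt3, the same in all 6 pools. Their reference transcripts in GENCODE are 549, 511 and 536 bases long, so the length behind the FPKM of Mt1 was over double that of its transcript. Per kilobase of these transcripts, with the same scaling for library size, the control means were 437 for Mt1, 323 for Mt2 and 514 for Mt3, and the olanzapine means were 439, 337 and 506. Mt3 had the highest mean of the 3 on both scales, while Mt1 stood below Mt2 on deposited FPKM and above it per transcript length.

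**Figure D3:**
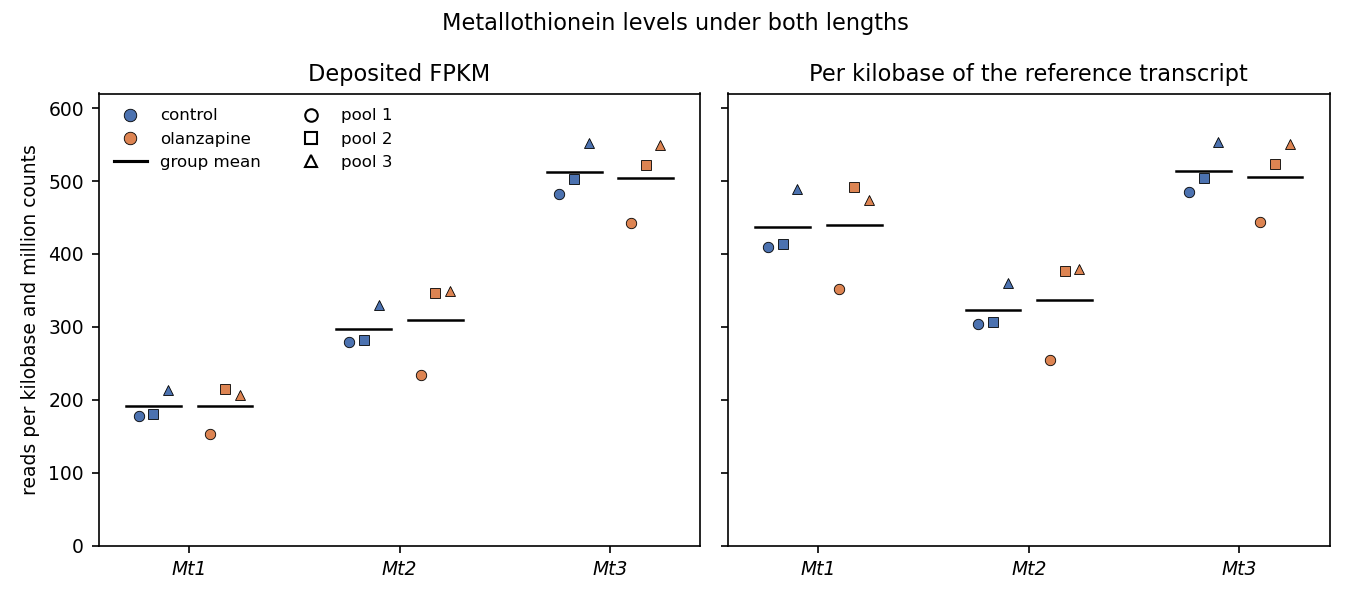
Levels of Mt1, Mt2 and Mt3 in each pool as deposited FPKM (left) and per kilobase of the GENCODE transcript (right), blue for control and orange for olanzapine, with a bar at the group mean. Mt1 moves from a control mean of 191 to 437 between the panels, past Mt2, while Mt2 and Mt3 move little.

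On the FPKM scale the levels in the control group ran, from high to low, Fth1, Mt3, Mt2, Trf, Mt1, Tfrc, Cp, Slc40a1, Hpx and Hamp. The ranges of the neighbours Trf and Mt1, and of Cp and Slc40a1, overlapped over the pools, but Trf was above Mt1 within each of the 3 pools, while the order of Cp and Slc40a1 differed between pools. In the olanzapine group the order was Fth1, Mt3, Mt2, Trf, Mt1, Hpx, Tfrc, Hamp, Cp and Slc40a1. There Mt2 and Trf overlapped, as did Trf and Mt1, Hpx and Tfrc, Tfrc and Hamp, and Cp and Slc40a1. Within each olanzapine pool Mt2 was above Trf, Trf above Mt1 and Cp above Slc40a1, while the order of Tfrc with Hpx and with Hamp differed between pools. Hpx and Hamp thus went from the lowest places, below 1 FPKM in every control pool, to the level of Tfrc. The FPKM of a gene is set by the length used for it, as shown for Mt1, whose place between Trf and Tfrc rests on the deposited length.

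**Figure D4:**
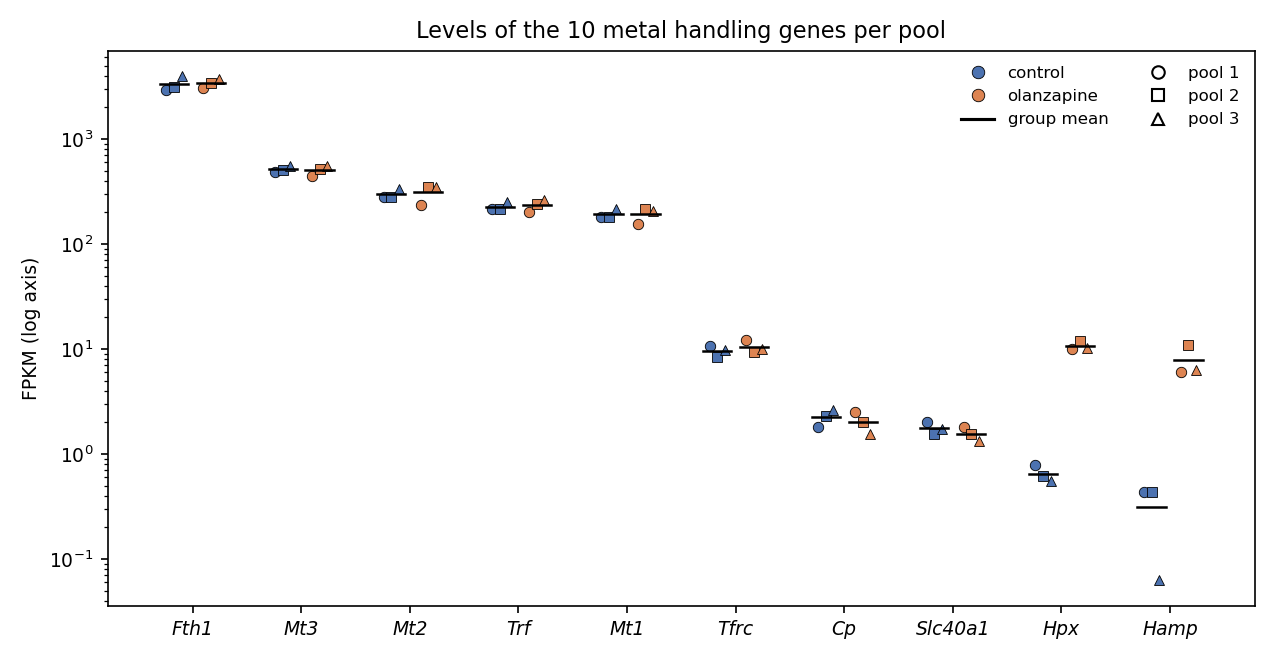
FPKM (log axis) of the 10 genes in each pool, blue for control and orange for olanzapine, with a marker shape per pool number and a bar at the group mean. Fth1 lies above 2900 FPKM and Hamp below 0.5 FPKM in all control pools, and Hpx and Hamp are the genes whose groups separate.

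Of 39 further symbols for iron and haem handling, 37 were genes of the tables and 34 were tested. In this group edgeR called 2 genes higher and 0 lower (1.83% and 0.493% of all tested genes were called in these directions), 17 had a log2 fold change above 0 and 17 below, and the median was 0.01 beside 0.00 for all tested genes. At an unadjusted p under 0.05 there were 9, beside 17.6% of all tested genes, of which 3 were lower, beside 8.40%. DESeq2 called 7 of the 34, beside 6.69% of all genes, and 3 of the 7 were lower, beside 2.85% of all genes. Those 3, named after their values were seen, were Cybrd1, Heph and Lrp1. The genes called by edgeR were Hp and Lcn2. Hp encodes haptoglobin, the plasma protein that binds free haemoglobin, and had 175, 132 and 137 counts in control pools 1 to 3 and 576, 785 and 661 counts in olanzapine pools 1 to 3. It rose by 2.20 on the log2 scale (SE 0.17; edgeR, adjusted p = 0.00128), with no overlap between the groups. Lcn2, which encodes lipocalin 2, a binder of iron-loaded siderophores, had 7, 9 and 10 counts across the control pools, against 66, 91 and 101 across the olanzapine pools. It rose by 3.31 on the log2 scale (SE 0.34; edgeR, adjusted p = 0.00359), also with no overlap.

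The ratio of Hp to Alb did not overlap between the groups, and no test of the ratio was run. Hp stood at 38.04, 26.0 and 51.1 counts per 100 Alb counts across the control pools, against 11.4, 11.8 and 12.4 across the olanzapine pools, so that every control ratio was above every olanzapine ratio. Lcn2 stood at 1.52, 1.78 and 3.73 counts per 100 Alb counts across the control pools, against 1.31, 1.37 and 1.89 across the olanzapine pools, with overlap.

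The most abundant of the other iron genes were Ftl1 and Pcbp1, and neither passed the test. Ftl1, the ferritin light chain, stood at 297 ± 34.6 FPKM for control pools and 315 ± 36.4 FPKM for olanzapine pools (log2 fold change 0.06; edgeR, adjusted p = 0.814). Pcbp1, an RNA-binding protein that delivers iron to ferritin, stood at 119 ± 2.10 FPKM and 127 ± 8.62 FPKM (log2 fold change 0.07; edgeR, adjusted p = 0.634). The regulators of hepcidin, named here after their values were seen, did not pass either. Their log2 fold changes were -0.45 for Bmp6, a ligand that drives hepcidin, 0.03 for Hjv, the hemojuvelin co-receptor, -0.24 for Hfe and 0.38 for Tfr2, which sense transferrin iron, and 0.40 for Tmprss6, the protease that cleaves hemojuvelin, with edgeR adjusted p-values from 0.381 to 0.976. Ireb2 and Aco1, which encode the iron regulatory proteins that bind iron-responsive elements and were also named after their values were seen, had log2 fold changes of -0.13 and -0.04 (edgeR, adjusted p = 0.339 and 0.840).

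Of 16 further copper genes, 14 were tested and 0 were called by edgeR, beside 2.32% of all tested genes. At an unadjusted p under 0.05 there were also 0, beside 17.6% of all tested genes, and DESeq2 called 0, beside 6.69%. Their median log2 fold change was 0.03, with 8 above 0 and 6 below. Sod1, the copper-zinc superoxide dismutase, stood at 348 ± 21.8 FPKM for control pools and 380 ± 36.5 FPKM for olanzapine pools (log2 fold change 0.10; edgeR, adjusted p = 0.554). Cox17, the chaperone that delivers copper to cytochrome oxidase, stood at 51.9 ± 4.06 FPKM and 56.5 ± 4.98 FPKM (log2 fold change 0.10; edgeR, adjusted p = 0.612).

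Of 23 zinc genes, 21 were tested, and edgeR called 1 higher and 0 lower, while DESeq2 called 1 higher and 2 lower, Slc30a1 and Slc39a12 (DESeq2, adjusted p = 0.0152 and 0.0379). Over all tested genes edgeR called 1.83% higher and 0.493% lower, and DESeq2 called 6.69% in either direction and 2.85% lower. The median log2 fold change was -0.08, with 6 above 0 and 15 below, and 8 had an unadjusted p under 0.05 in edgeR, of which 6 were lower in the olanzapine group. Over all tested genes those shares were 17.6% and 8.40%. The gene called by edgeR was Slc39a2, a zinc importer of the plasma membrane, with 85, 110 and 78 counts in control pools 1 to 3 and 351, 299 and 348 counts in olanzapine pools 1 to 3. It rose by 1.89 on the log2 scale (SE 0.19; edgeR, adjusted p = 0.00322), and the groups did not overlap. The most abundant zinc genes, Slc30a9 and Slc39a7, had log2 fold changes of -0.08 and -0.03 (edgeR, adjusted p = 0.601 and 0.828). Mtf1, which encodes a factor known to bind metal response elements, and Slc30a1, the zinc exporter that is one of its known targets, are, like the DESeq2 calls, named after their values were seen. The log2 fold changes of Mtf1 and Slc30a1 were -0.20 and -0.38 (edgeR, adjusted p = 0.220 and 0.0727).

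**Figure D5:**
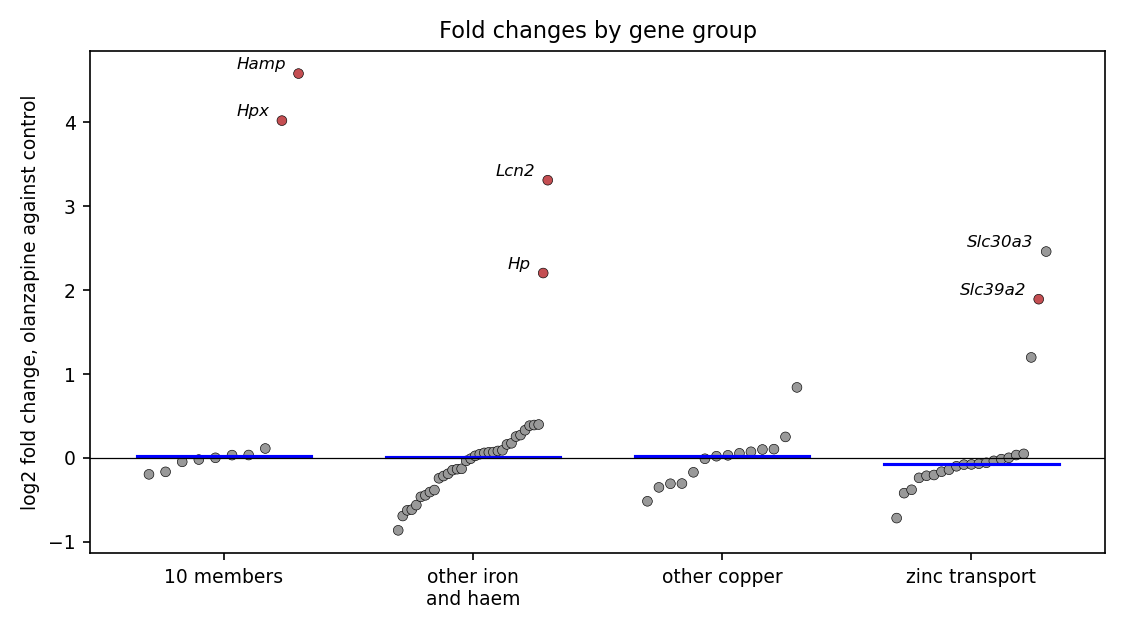
Log2 fold change (olanzapine against control, y axis) of each tested gene in 4 groups, sorted by value within a group, with a blue line at the group's median and red points for an adjusted p under 0.05. The medians lie between -0.08 and 0.03, and the red points are Hamp and Hpx, Lcn2 and Hp, and Slc39a2.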

How the data were processed

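RNA-seq libraries of 6 pools were analysed. The authors used fastp for trimming, HISAT2 for alignment to mm10 and HTSeq-count for counting of the paired-end reads, and deposited raw counts and FPKM for each library. The deposited FPKM equal the counts over the library total and 1 fixed length per gene. Annotation version, strand setting and treatment of multiply mapping reads were not given in the sources used here, and the labels gave no batch.

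The quasi-likelihood test of edgeR 4.0.16 (R 4.3.3) was run on TMM-normalized counts with diet as its single factor, over genes passing filterByExpr (minimum count 10, minimum total 15). Benjamini-Hochberg adjustment ran over all 17255 tested genes, and a gene was called at an adjusted p under 0.05. The standard error was the log2 fold change divided by the square root of F. Scripts were tested on simulated data.

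Alternatives were DESeq2 1.42.0, other normalizations and count filters, limma 3.58.1 on log2(FPKM + 1) and log2(FPKM + 0.1), the replicate number as a block and leaving out each pool. The study had used DESeq2. A choroid plexus score as a covariate (the mean log2 CPM of the markers) and the GENCODE transcript length of the metallothioneins were added after seeing the data. Same-numbered pools did not deviate together, which does not show whether they shared a batch, and the block is an alternative only.

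The 10 genes and all lists were chosen with earlier results of these data known. Genes named were the 10 genes, every called gene of the iron, copper and zinc lists and the 2 most abundant of each, the most abundant gene of a marker list, and for each called gene of the 10 the 3 tested genes of at least 20 mean counts with the nearest pattern. Genes outside this rule are marked as named after their values were seen. The other marker lists, of blood cells, microglia and meningeal fibroblasts, had 0 called. Of the 8 microglia markers 7 had a log2 fold change above 0. At an unadjusted edgeR p under 0.05 there were 3, of which 2 were higher and 1 lower, beside 17.6% of all tested genes. Sequences came from RefSeq promoter windows and GENCODE transcripts of GRCm38.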

Additional observations from a re-analysis of the deposited data

How the results depend on the processing

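Hpx and Hamp were called under all 10 other settings and in all 6 fits that left out a pool. The log2 fold change ran from 2.83 to 4.03 for Hpx and 2.71 to 4.64 for Hamp over the settings, the lowest in limma on log2(FPKM + 1), a scale that understates changes of low genes. Without 1 pool it ran from 3.92 to 4.19 for Hpx (highest edgeR adjusted p 0.00402) and 4.12 to 4.90 for Hamp (highest edgeR adjusted p 0.0403, without control replicate 2). The number of called genes among the 10 was 2 throughout.

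Directions changed for 6 of the 10 genes, none of which was called. The log2 fold change of Fth1 was -0.0029 with DESeq2 and with RLE normalization and -0.0042 without a count filter. Leaving out 1 pool gave ranges of -0.082 to 0.14 for Fth1, -0.089 to 0.10 for Mt1, -0.068 to 0.19 for Mt2, -0.12 to 0.025 for Mt3, -0.030 to 0.21 for Tfrc and -0.064 to 0.11 for Trf.

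With DESeq2 the called iron and haem genes went from 2 to 7 (adding Cybrd1, Heph, Lrp1, Slc25a28 and Slc25a37) and the zinc genes from 1 to 3 (adding Slc30a1 and Slc39a12), and over all genes from 401 to 1154, and the cause was not tested. At a mean of at least 50 counts, 1 iron gene was called because Lcn2 was no longer tested. Without 1 pool the iron count was 2 to 3, the zinc count 1 and the copper count 0.

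With the replicate block, 2 of the 10 genes were called, Hpx at 4.03 and Hamp at 4.64 on the log2 scale, and 140 genes over all. The deviations of same-numbered pools correlated at -0.003, 0.06 and -0.25, and control pool 1 correlated best with olanzapine pool 3. Deviations were taken from the mean of each group's 3 pools, so these values cannot show whether same-numbered pools shared a batch. The block changed no call among the 10 genes or the 3 lists. Depth limits Hamp and Lcn2, which had at most 10 counts per control pool.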

Other observations

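These genes were chosen after their values were seen. Slc30a3, which loads zinc into synaptic vesicles of cortical and hippocampal neurons, had 93, 126 and 148 counts in control pools 1 to 3 and 1747, 132 and 76 counts in olanzapine pools 1 to 3. Its fitted log2 fold change of 2.46 (SE 1.07; edgeR, adjusted p = 0.284) rests on olanzapine pool 1. Leaving that pool aside, the groups overlapped.

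Slc31a1, the plasma membrane copper importer, had 883, 1396 and 2483 counts in control pools 1 to 3 and 1168, 1943 and 694 counts in olanzapine pools 1 to 3. The pools took the same order as for the summed choroid plexus markers, which stood at 136, 2772 and 7658 CPM across the control pools, against 1199, 4833 and 88.4 CPM across the olanzapine pools. Bmp6, with 506, 900 and 1364 counts across the control pools, against 491, 1116 and 405 across the olanzapine pools, was also highest in control pool 3 and lowest in olanzapine pool 3. The part of choroid plexus transcripts in these levels was not tested.

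Heph and Cybrd1, a ferroxidase and a ferric reductase of iron transport, were lower in every olanzapine pool than in any control pool. Heph had 674, 555 and 654 counts across the control pools, against 298, 406 and 508 across the olanzapine pools (edgeR, adjusted p = 0.150; DESeq2, adjusted p = 0.0333). Cybrd1 had 185, 156 and 237 counts across the control pools, against 93, 100 and 120 across the olanzapine pools (edgeR, adjusted p = 0.0945; DESeq2, adjusted p = 0.0137). Both calls therefore depend on the tool. Of the 34 tested genes of the iron and haem list, 7 were higher and 4 lower without overlap. Over all 17255 tested genes these numbers were 2303 and 1898. Slc25a37 and Slc25a28 were higher in every olanzapine pool than in any control pool. They too were called by DESeq2 (adjusted p = 0.0372 and 0.0297) and not by edgeR (adjusted p = 0.107 and 0.0777).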
